A study of Mus musculus with 4 samples.

Results

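Starburst amacrine cells are the cholinergic interneurons of the retina, the light-sensing tissue of the eye, and the nuclei described here were picked out by the RNA of the genes that define them. A nucleus was counted as starburst when it held at least 2 UMIs (unique molecular identifiers, each standing for 1 captured RNA molecule) of Chat, Slc18a3 and Slc5a7 together and at least 1 of Megf10, Megf11, Sox2 and Fezf1 together. It also needed at least 1 UMI of Gad1 and Gad2 together, at most 1 of Slc17a6, at most 1 of Slc6a9, and at most 5% of its UMIs from mitochondrial genes. These criteria took 216 nuclei of 32326 barcodes in all. Nuclear RNA was captured with the 10x droplet method in 4 libraries of mouse retina, each from the left eye of 1 donor. There were 2 animals of 5 months, whose genotype the labels do not give, and 2 animals of 2.5 months, which the labels call wild type. No strain, treatment or transgene was named for either age, and the purpose of the age comparison was not stated.

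The starburst nuclei numbered 60 and 56 at 5 months and 32 and 68 at 2.5 months. They held 1489503 UMIs in all, between 188842 and 551395 per library, with a median of 6241.5 UMIs per nucleus and a range of 882 to 22730. Whole libraries held 19608067 to 36320257 UMIs with medians of 1812.5 to 2899.5 UMIs per barcode. Barcodes shared by a pair of libraries made up 0.0808% to 0.337% of the smaller library, and 0 of them were starburst in both libraries. Values below are UMIs per 1000000 of all UMIs summed over a class in a library (CPM), which is not corrected for gene length, so levels are compared between classes of nuclei and not between genes.

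Starburst cells make acetylcholine as well as GABA. Choline is taken up by the transporter encoded by Slc5a7, joined to an acetyl group by choline acetyltransferase (Chat), and packed into vesicles by the transporter encoded by Slc18a3, whose gene lies within the Chat locus. The cells form a pair of mirror populations, ON and OFF, on either side of the inner plexiform layer, and their dendrites give direction-selective ganglion cells their preference for one direction of motion.

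The promoters of the 3 cholinergic genes of the rule and of Isl1, a transcription factor gene that was higher in starburst nuclei than in the 3 other classes, are shown because these genes mark the nuclei. The sequences are RefSeq's, from build GRCm38.p6, written 5′ to 3′ along the gene. They run from 250 bases before the annotated start in lower case to the first 50 transcribed bases in capitals.
Chat (chr14:32465860-32466159, minus strand): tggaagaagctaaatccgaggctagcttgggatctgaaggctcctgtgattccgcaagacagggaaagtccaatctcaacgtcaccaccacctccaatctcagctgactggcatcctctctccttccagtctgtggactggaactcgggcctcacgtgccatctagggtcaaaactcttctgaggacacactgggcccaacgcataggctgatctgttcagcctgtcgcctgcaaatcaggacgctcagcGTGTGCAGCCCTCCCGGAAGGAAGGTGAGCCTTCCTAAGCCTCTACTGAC
Slc18a3 (chr14:32464801-32465100, minus strand): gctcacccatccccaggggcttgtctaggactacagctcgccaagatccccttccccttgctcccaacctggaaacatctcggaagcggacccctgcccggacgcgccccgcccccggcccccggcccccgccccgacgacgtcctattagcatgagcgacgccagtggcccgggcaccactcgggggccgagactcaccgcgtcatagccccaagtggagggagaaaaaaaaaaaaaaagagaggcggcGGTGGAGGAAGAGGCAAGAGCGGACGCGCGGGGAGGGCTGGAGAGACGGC
Slc5a7 (chr17:54298985-54299284, minus strand): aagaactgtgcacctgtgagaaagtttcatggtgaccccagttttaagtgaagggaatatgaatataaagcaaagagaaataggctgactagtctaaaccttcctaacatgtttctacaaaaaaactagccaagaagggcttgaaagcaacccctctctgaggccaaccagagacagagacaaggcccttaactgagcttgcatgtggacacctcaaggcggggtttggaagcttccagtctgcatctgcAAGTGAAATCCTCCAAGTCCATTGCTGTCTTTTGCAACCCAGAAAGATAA
Isl1 (chr13:116309639-116309938, minus strand): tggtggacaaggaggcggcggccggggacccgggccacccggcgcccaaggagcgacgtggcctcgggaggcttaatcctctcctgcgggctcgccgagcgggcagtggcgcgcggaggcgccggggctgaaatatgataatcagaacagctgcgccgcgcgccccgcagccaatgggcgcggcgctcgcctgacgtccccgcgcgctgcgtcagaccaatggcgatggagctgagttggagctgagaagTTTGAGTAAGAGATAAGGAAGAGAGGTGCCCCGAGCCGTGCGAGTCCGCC
Chat spans chr14:32408203-32465989 on the minus strand, and Slc18a3, at chr14:32462438-32464850 on the same strand, lies inside it (GRCm38, GENCODE annotation). GC content was 55.7% in the Chat promoter, 67% for Slc18a3, 44.7% for Slc5a7 and 69.0% for Isl1, beside a median of 52.7% over the 32851 promoters in the table. The homeodomain core TAAT, searched on both strands, occurred in 58.0% of those promoters. It had 0 matches in the Chat and Slc5a7 windows, 1 in the Slc18a3 window and 2 in the Isl1 window.

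The genes of the rule chose the nuclei, so their values are a description and carry no test. Chat stood at 378 and 378 CPM at 5 months and 498 and 470 CPM at 2.5 months. Slc5a7 stood at 479 and 405 CPM at 5 months and 408 and 359 CPM at 2.5 months. A nucleus held between 2 and 16 UMIs of the cholinergic genes, with a median of 5. Chat was detected in 204 of 216 nuclei (94.4%), Slc5a7 in 198 (91.7%) and both in 186 (86.1%). Slc18a3 had 0 UMIs in every barcode of the series. It lies inside Chat on the same strand, and how shared reads were assigned is not given in the sources used here, so the count sets no limit on its transcript. The cholinergic criterion therefore rested on Chat and Slc5a7. Starburst nuclei held 72.9% of the 873 Chat UMIs of the whole series and 67.4% of the 900 Slc5a7 UMIs.

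Megf11, an adhesion receptor gene, was detected in 215 nuclei (99.5%). It stood at 1417 and 1204 CPM at 5 months and 1350 and 1857 CPM at 2.5 months. In 89 nuclei (41.2%) it alone met the second criterion. Sox2, a transcription factor kept in adult starburst cells, was detected together with Megf11 in 94 nuclei (43.5%). Megf10, the relative of Megf11, was detected in 52 nuclei (24.1%), and Fezf1, a factor known from ON starburst cells of the mouse, in 4 (1.85%). Of the markers that name the class, Chat and Slc5a7 were therefore plain, Megf10 and Fezf1 sparse, and Slc18a3 without a UMI.

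Gad1 and Gad2 both make the enzyme that produces GABA. Gad1 stood at 422 and 432 CPM at 5 months and 413 and 479 CPM at 2.5 months, close to the 434 to 466 CPM of other GABAergic amacrine nuclei. Gad2 stood at 2.61 and 16.4 CPM at 5 months and 10.6 and 9.07 CPM at 2.5 months, while in other GABAergic amacrine nuclei it ranged from 158 to 208 CPM. Both genes were used to choose both classes, so this contrast has no test, but the 14 Gad2 UMIs in starburst nuclei set beside 662 of Gad1 show that Gad1 met the GABA criterion almost alone.

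Nuclei just outside the rule differed among themselves. The 28 members with exactly 2 cholinergic UMIs held Isl1 at 319 CPM and the 188 with 3 or more at 391 CPM, against 257 CPM in 43 nuclei that met every other criterion with 1 cholinergic UMI. The 37 nuclei that failed only the Gad criterion held Isl1 at 337 CPM and Megf11 at 1256 CPM, near the members' levels. The 11 that failed only the Megf10, Megf11, Sox2 and Fezf1 criterion held Isl1 at 13.6 CPM. Another 3 nuclei failed only on Slc17a6 and 8 only on Slc6a9.

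Genes outside the rule were compared with 3 classes chosen in the same libraries by rules of the same kind, with UMIs summed per class and library. There were 1849 other GABAergic amacrine nuclei without cholinergic UMIs, 647 glycinergic amacrine nuclei, which carry the glycine transporter gene Slc6a9, and 1016 ganglion cell nuclei, the output neurons, which carry Slc17a6. These classes held 12073623, 3291240 and 11594006 UMIs in all, against 1489503 in starburst nuclei. Where a gene is given as a count of UMIs, the count is not scaled to these totals. A gene was called at a Benjamini-Hochberg adjusted p under 0.05 over 11492 tested genes (edgeR quasi-likelihood test, 2-sided, library as a block). Fold changes are starburst over the other class, on the log2 scale with standard errors. The nuclei of all classes came from the same 4 animals. With library as a block, p-values set a class difference against the variation left between the sums of these 4 libraries. That variation was estimated from all 4 classes in 1 fit, with information shared across genes. Rod photoreceptor transcripts were present in all classes: the 10 rod markers summed to 1368 to 2526 CPM in starburst nuclei, 1396 to 2463 CPM in other GABAergic, 1901 to 3547 CPM in glycinergic and 664 to 1430 CPM in ganglion nuclei. A starburst nucleus held 1 to 75 UMIs of these markers, with a median of 9. Of these 10 markers 7 fell against glycinergic nuclei and 10 rose against ganglion nuclei, and the part of free RNA and of droplets shared with a rod in these values was not tested. Ganglion markers summed to 68.8 to 201 CPM in starburst nuclei, against 2448 to 2706 CPM in ganglion nuclei, and glycinergic markers to 5.30 to 28.7 CPM, against 744 to 1067 CPM in glycinergic nuclei. Both sums include genes used to choose the classes, among them Slc17a6 and Slc6a9, so part of each gap was fixed by the rules. Means over libraries are given ± SD with n = 4 libraries per class, and fold changes ± SE.

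Isl1, a LIM homeodomain factor gene known from starburst cells, rose against all 3 classes. It stood at 323 and 449 CPM at 5 months and 445 and 357 CPM at 2.5 months in starburst nuclei, against 13.2 and 8.52 CPM and 16.5 and 7.42 CPM in other GABAergic amacrine nuclei. Ganglion nuclei held 107 and 134 CPM at 5 months and 121 and 96.2 CPM at 2.5 months, and glycinergic nuclei 1.85 to 13.1 CPM. The starburst libraries lay above all others without overlap. The fold change was 5.36 ± 0.17 against other GABAergic (adjusted p = 1.9e-16), 5.98 ± 0.24 against glycinergic (adjusted p = 7e-15) and 1.76 ± 0.13 against ganglion nuclei (adjusted p = 1.9e-10). Isl1 was detected in 191 of 216 starburst nuclei (88.4%). With every nucleus thinned to 2000 UMIs, 39.0% to 60.7% of starburst nuclei per library held an Isl1 UMI, against 0.912% to 3.41% of other GABAergic, 0% to 3.77% of glycinergic and 14.8% to 23.01% of ganglion nuclei.

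**Figure D1:**
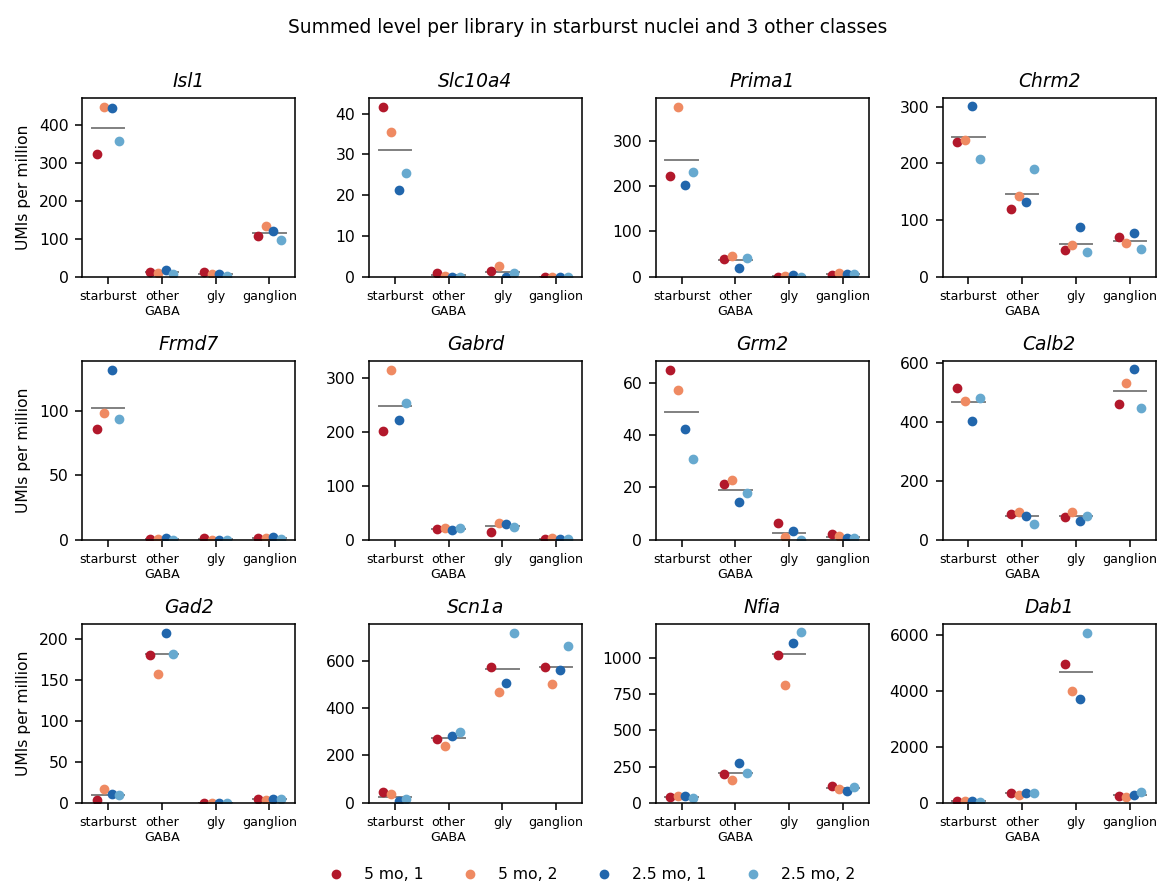
Levels of single genes in UMIs per 1000000 (y axes, linear from 0) in starburst, other GABAergic amacrine, glycinergic amacrine and ganglion nuclei (x axes); each point is 1 library, coloured by age and donor. For Isl1 the 4 starburst libraries sit between 323 and 449 CPM, above every library of the other classes.

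Of the 11492 genes, 1389 (12.1%) were higher and 1571 (13.7%) lower in starburst than in other GABAergic amacrine nuclei. Against glycinergic nuclei 1243 (10.8%) were higher and 1369 (11.9%) lower, and against ganglion nuclei 1795 (15.6%) were higher and 2130 (18.5%) lower. In all 3 contrasts 739 genes (6.43%) were higher and 554 (4.82%) lower, with 130 at least 4-fold higher in each and 166 at least 4-fold lower. Over all tested genes the median fold change was -0.016, -0.050 and -0.004 in these contrasts.

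Of the other cholinergic genes, Slc10a4, Prima1 and Slc44a5 rose in all 3 contrasts. Slc10a4 encodes a vesicle transporter of cholinergic and monoaminergic neurons. It had 47 UMIs in starburst nuclei, at 41.7 and 35.6 CPM at 5 months and 21.2 and 25.4 CPM at 2.5 months, against 4 UMIs in other GABAergic, 5 in glycinergic and 0 in ganglion nuclei (adjusted p = 9e-09, 2.8e-06 and 4.3e-09). Prima1, which anchors acetylcholinesterase to the membrane, stood at 221 and 375 CPM at 5 months and 201 and 230 CPM at 2.5 months. In other GABAergic nuclei it stood at 39.3 and 45.9 CPM at 5 months and 19.4 and 41.2 CPM at 2.5 months, a fold change of 2.87 ± 0.14 (adjusted p = 3.1e-13), and in ganglion nuclei the fold change was 5.54 ± 0.19 (adjusted p = 4.2e-16). Slc44a5, of the choline transporter-like family, averaged 69.5 ± 5.21 CPM in starburst nuclei, against 18.2 ± 3.75, 9.29 ± 2.84 and 25.6 ± 7.13 CPM in other GABAergic, glycinergic and ganglion nuclei. Ache, acetylcholinesterase itself, averaged 17.6 ± 12.4 CPM, against 49.5 ± 7.73 CPM in other GABAergic nuclei, a fall of log2 -1.33 ± 0.29 (adjusted p = 0.00096), and it was not called against glycinergic nuclei (-0.88 ± 0.33, adjusted p = 0.059). Of the 8 tested genes of this list, 3 rose and 1 fell against other GABAergic nuclei, 3 rose against glycinergic nuclei, and 3 rose and 2 fell against ganglion nuclei, with the rest not called.

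Receptors for acetylcholine were mostly low. Of 5 tested nicotinic subunits, which form ion channels opened by acetylcholine, 3 fell against other GABAergic and 5 against ganglion nuclei. Against glycinergic nuclei 0 of the 5 rose or fell. The list's median fold change was -2.14 against other GABAergic, -4.64 against ganglion and -0.47 against glycinergic nuclei. Chrnb3 averaged 9.33 ± 4.96 CPM in starburst nuclei, against 48.0 ± 9.46 CPM in other GABAergic and 230 ± 14.1 CPM in ganglion nuclei. The inhibitory muscarinic receptor gene Chrm2 ran the other way, with 237 and 241 CPM at 5 months and 302 and 207 CPM at 2.5 months in starburst nuclei, against 119 and 142 CPM and 131 and 189 CPM in other GABAergic nuclei. All 4 starburst libraries lay above these, and the rise was log2 0.82 ± 0.17 (adjusted p = 0.00059). It was 2.29 ± 0.22 against glycinergic nuclei and 1.91 ± 0.18 against ganglion nuclei. Chrm3 fell by 2.79 ± 0.39 on the log2 scale against other GABAergic nuclei (adjusted p = 5e-06).

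Genes of GABA handling and of chloride transport, held in 1 list, were lower than in other GABAergic nuclei or not called. Of 8 tested members 6 fell against these and the other 2 were not called, with a list median of -0.89. Against glycinergic nuclei 2 rose and 3 fell, with a median of -0.61, and against ganglion nuclei 2 rose and 4 fell, with a median of -0.43. Slc32a1, the vesicular GABA transporter gene, averaged 68.3 ± 17.9 CPM in starburst nuclei, against 172 ± 18.5 CPM in other GABAergic nuclei and 4.61 ± 0.821 CPM in ganglion nuclei (log2 -1.13 ± 0.17 and 3.94 ± 0.28). Abat, the enzyme that breaks GABA down, averaged 7.37 ± 7.42 CPM, against 106 ± 12.4 CPM in other GABAergic nuclei, and fell in all 3 contrasts (-3.40 ± 0.28, -2.67 ± 0.32 and -2.62 ± 0.30).

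Receptors for GABA divided by subunit. Of 20 tested GABA and glycine receptor genes, 7 rose and 9 fell against other GABAergic nuclei, 7 rose and 8 fell against glycinergic nuclei, and 7 rose and 10 fell against ganglion nuclei. Gabrd encodes the delta subunit of receptors outside synapses. It stood at 201 and 315 CPM at 5 months and 222 and 254 CPM at 2.5 months in starburst nuclei, against 17.4 to 20.8 CPM per library in other GABAergic, 14.4 to 29.9 CPM in glycinergic and 0.426 to 2.72 CPM in ganglion nuclei. The groups did not overlap, and the fold change was 3.79 ± 0.15 against other GABAergic nuclei (adjusted p = 4.9e-15). Gabra4, whose subunit often pairs with delta, averaged 304 ± 30.2 CPM, against 17.1 ± 3.08, 9.34 ± 2.67 and 24.2 ± 6.35 CPM in the 3 other classes. Gabrb1 rose in all 3 contrasts too, while Gabrg3, Gabrb2 and Gabra3 fell in all 3. The glycine receptor gene Glra2 fell by 4.33 ± 0.32, 4.12 ± 0.34 and 3.36 ± 0.36 on the log2 scale.

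Metabotropic glutamate receptor genes moved both ways. Grm2, Grm3, Grm7 and Grm8, whose receptors lower cyclic AMP, rose in all 3 contrasts, while Grm4, of the same kind, and Grm5, whose receptor releases stored calcium, fell in all 3. The medians over the list were 0.73, 2.16 and 0.73. Grm2, known from starburst cells of the mouse, stood at 65.1 and 57.5 CPM at 5 months and 42.4 and 30.8 CPM at 2.5 months. Other GABAergic nuclei held 21.4 and 23 CPM at 5 months and 14.5 and 17.9 CPM at 2.5 months, below each starburst library, and the fold change was 1.41 ± 0.27 (adjusted p = 0.00028). Against glycinergic and ganglion nuclei it was 4.61 ± 0.46 and 5.21 ± 0.39. Grm8 averaged 3604 ± 754 CPM in starburst nuclei, against 1206 ± 137 CPM in other GABAergic nuclei. Grm5 averaged 30.4 ± 21.2 CPM, against 379 ± 59.3 CPM.

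Of 17 tested ionotropic glutamate receptor genes, 3 rose and 9 fell against other GABAergic nuclei. Grin2b (1.53, 2.00 and 1.29) and Grin2c (1.95, 4.45 and 3.99), NMDA receptor subunit genes, and the AMPA subunit gene Gria2 (0.35, 0.87 and 0.41) rose in all 3 contrasts on the log2 scale. Grin2c averaged 32.0 ± 11.7 CPM in starburst nuclei, against 8.51 ± 3.09 CPM in other GABAergic nuclei.

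Genes of voltage-gated sodium channels were lower in starburst nuclei or not called. Of 12 tested sodium and HCN channel genes 8, 7 and 12 fell against other GABAergic, glycinergic and ganglion nuclei and the rest were not called, with list medians of -1.40, -0.85 and -1.79. Scn1a stood at 46.9 and 35.6 CPM at 5 months and 5.30 and 14.5 CPM at 2.5 months in starburst nuclei, against 271 and 239 CPM and 280 and 299 CPM in other GABAergic nuclei (-3.23 ± 0.23, adjusted p = 1.2e-10). Scn8a was the member nearest to the amacrine classes, with 194 ± 28.1 CPM in starburst nuclei, against 196 ± 19.3 CPM in other GABAergic nuclei (0.11 ± 0.10, adjusted p = 0.52).

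Of 24 potassium channel genes, 3 rose and 15 fell against other GABAergic nuclei, with a median of -1.76. Kcnc1 encodes a Kv3 channel of the kind known to shunt starburst dendrites. It stood at 318 and 320 CPM at 5 months and 296 and 316 CPM at 2.5 months, against 170 and 140 CPM and 118 and 139 CPM in other GABAergic nuclei, above them in every library (1.25 ± 0.11, adjusted p = 3.1e-09). The rise was 1.51 ± 0.12 against glycinergic and 0.83 ± 0.11 against ganglion nuclei. Its relative Kcnc2 rose against glycinergic nuclei (2.71 ± 0.14) and was not called otherwise, with 0.28 ± 0.12 (adjusted p = 0.099) against other GABAergic and -0.18 ± 0.12 (adjusted p = 0.28) against ganglion nuclei. Kcnb2, a delayed rectifier gene, averaged 3694 ± 683 CPM, against 338 ± 20.4, 296 ± 82.7 and 790 ± 87.0 CPM in the other classes. Kcna1 and Kcnj3 fell in all 3 contrasts, Kcnj3 to 7.85 ± 8.80 CPM in starburst nuclei, against 176 ± 15 CPM in other GABAergic nuclei.

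Of 13 tested calcium channel genes, 4 rose against each class, and 8, 8 and 7 fell. Cacna1a, which encodes the pore of P/Q-type channels at release sites, averaged 1600 ± 140 CPM, against 511 ± 79.3 CPM in other GABAergic nuclei (1.77 ± 0.11). Cacna1b of N-type channels and Cacna2d1, an auxiliary subunit gene, also rose in all 3 contrasts, Cacna2d1 by 2.53 ± 0.10 against other GABAergic nuclei. Cacna1c, Cacna1e and Cacna2d3 fell in all 3.

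Genes of vesicle release rose in part. Of 28 tested, 5 rose and 13 fell against other GABAergic nuclei, 8 rose and 7 fell against glycinergic and 9 rose and 14 fell against ganglion nuclei. Syt1, the calcium sensor of fast release, rose modestly in all 3 contrasts (0.66 ± 0.09, 0.71 ± 0.09 and 0.64 ± 0.09). Rims1, an active zone scaffold gene, averaged 1678 ± 179 CPM, against 630 ± 58.1 CPM in other GABAergic nuclei. Sv2c, of a vesicle protein family, averaged 277 ± 102 CPM, against 37.9 ± 8.76 CPM in other GABAergic nuclei (2.90 ± 0.20), but 228 ± 33.3 CPM in ganglion nuclei (0.18 ± 0.17, adjusted p = 0.47). Syt7 and Syt13 fell against both other GABAergic and ganglion nuclei.

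**Figure D2:**
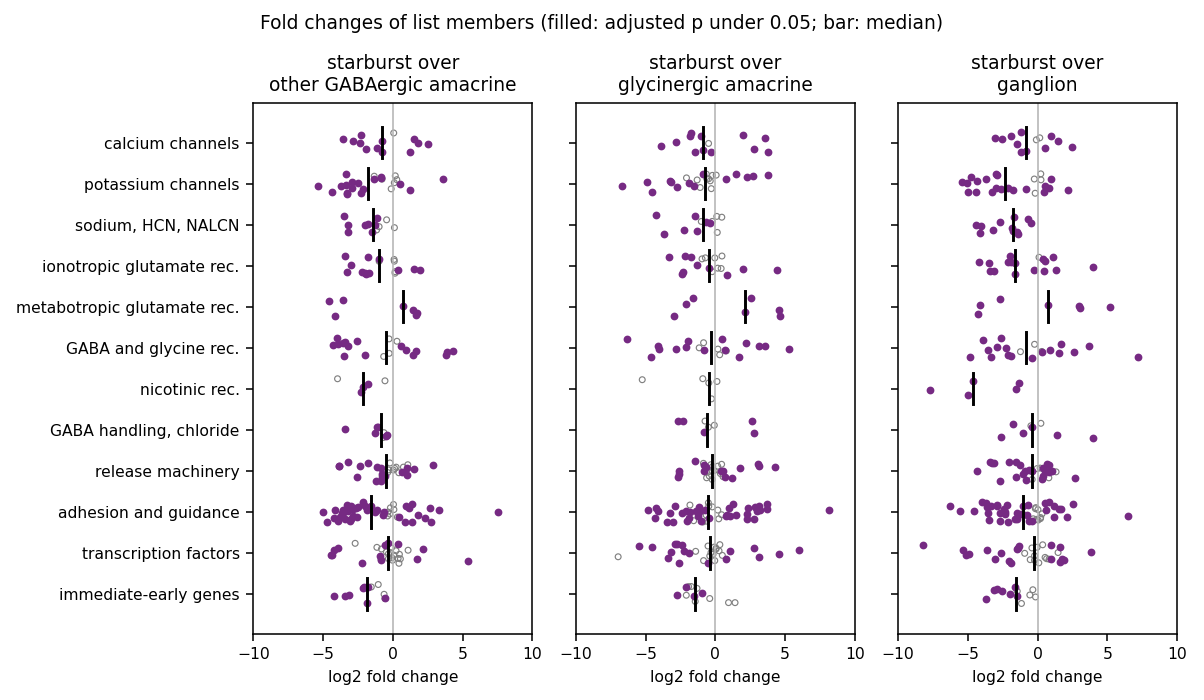
Fold changes of the members of the gene lists (1 point per gene, x axes in log2, starburst over the named class) for the 3 class contrasts, with lists as rows; filled points had an adjusted p under 0.05 and bars mark list medians. The nicotinic median lies at -2.14 against other GABAergic and -4.64 against ganglion nuclei.

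The largest list held guidance and adhesion genes. Of 49 tested, 12 rose and 28 fell against other GABAergic nuclei (median -1.58), 18 rose and 20 fell against glycinergic nuclei, and 10 rose and 29 fell against ganglion nuclei. Frmd7, a gene mutated in congenital nystagmus and needed for horizontal direction selectivity, had 146 UMIs in starburst nuclei, at 86.0 and 98.5 CPM at 5 months and 132 and 94.3 CPM at 2.5 months. The other GABAergic nuclei held 6 UMIs, the glycinergic 1 and the ganglion nuclei 12 (adjusted p = 1.6e-13, 1.5e-11 and 4e-13). Every starburst library lay far above every other. Plxna2, whose receptor binds semaphorin 6A in starburst cell lamination, averaged 1022 ± 149 CPM, against 220 ± 29.2 CPM in other GABAergic nuclei (2.32 ± 0.10), while its ligand gene Sema6a rose against glycinergic nuclei (2.31 ± 0.22) and was not called against other GABAergic (-0.23 ± 0.17, adjusted p = 0.37) or ganglion nuclei (0.03 ± 0.17, adjusted p = 0.92). Tenm2 of the teneurin family averaged 8029 ± 1325 CPM, against 1415 ± 263 CPM, and Cdh6, a cadherin gene, 683 ± 137 CPM, against 77.6 ± 20.4 CPM; both rose in all 3 contrasts. Cdh10, another cadherin gene, had 4 UMIs in starburst nuclei, against 969 in other GABAergic, 187 in glycinergic and 1427 in ganglion nuclei. It averaged 2.6 ± 3.7 CPM, against 74.1 ± 25.4, 52.7 ± 12.4 and 126.6 ± 17.0 CPM. Outside the list Cdh7 had 2 UMIs, against 1409, 386 and 1013 in these classes. Its means were 1.3 ± 2.6 CPM, against 117.7 ± 8.1, 108.7 ± 39.3 and 88.4 ± 7.6 CPM.

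Transcription factor genes moved both ways. Of 31 tested, with Isl1 among those that rose, 4 rose and 9 fell against other GABAergic nuclei. Against glycinergic nuclei 6 rose and 11 fell, and against ganglion nuclei 7 rose and 12 fell. Sox5 averaged 1661 ± 196 CPM, against 554 ± 101 CPM in other GABAergic nuclei (1.70 ± 0.13), and Tbx2 83.7 ± 17.7 CPM, against 20.2 ± 5.40 CPM (2.16 ± 0.19); both rose in all 3 contrasts. Nfia and Tcf4, factors known from glycinergic amacrine types, fell in all 3, Nfia to 40.6 ± 5.11 CPM, against 1030 ± 159 CPM in glycinergic nuclei. Nr4a2 and Lhx9 had 3 UMIs each of 1489503 in starburst nuclei, against 596 and 519 UMIs of 12073623 in other GABAergic nuclei.

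Markers of other amacrine types were mostly low. Of 14 tested peptide and transmitter genes, 2 rose and 8 fell against other GABAergic nuclei. Nos1, which marks nitric oxide producing amacrine cells, had 0 UMIs of 1489503 in starburst nuclei, against 457 of 12073623 in other GABAergic nuclei. Dab1, which marks AII glycinergic cells, averaged 50.5 ± 11.1 CPM, against 4679 ± 1068 CPM in glycinergic nuclei. Cck and Npy, both peptide genes, were the 2 that rose, and they rose in all 3 contrasts. Npy stood at 75.5 and 112 CPM at 5 months and 132 and 72.5 CPM at 2.5 months in starburst nuclei, against 67.6 and 65.1 CPM and 49.4 and 31.6 CPM in other GABAergic nuclei (0.93 ± 0.29, adjusted p = 0.019). Among 11 calcium-binding protein genes, Calb2 (calretinin), the classic stain of the starburst bands, averaged 467 ± 46.5 CPM, against 78.8 ± 17.0 CPM in other GABAergic and 78.6 ± 11.5 CPM in glycinergic nuclei. It did not separate starburst from ganglion nuclei, which averaged 505 ± 61.7 CPM (-0.09 ± 0.12, adjusted p = 0.62).

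The genes with the largest rise over all 3 classes lay mostly outside these lists. Gm38505, a long noncoding RNA at chr3:34298172-34351712 on the minus strand, had 418 UMIs in starburst nuclei, against 3 in other GABAergic, 1 in glycinergic and 1 in ganglion nuclei. Its starburst level was 258 and 452 CPM at 5 months and 260 and 190 CPM at 2.5 months. Hmga2, which encodes a chromatin protein best known from embryonic tissue, had 374 UMIs, against 31, 4 and 3, and P2rx2, an ATP-gated channel gene known from OFF cholinergic cells of the mouse, had 90 UMIs, against 6, 0 and 3. Moxd1, Pdgfc, Galnt15, Adamts18, Pde11a, Cmtm8 and Kcnj2 were also among the first 15. The inward rectifier gene Kcnj2 stood at 78.2 and 82.1 CPM at 5 months and 79.4 and 74.4 CPM at 2.5 months, against 1.57 to 3.85 CPM per library in other GABAergic nuclei (4.89 ± 0.30, adjusted p = 1.3e-11). Pde11a, a cyclic nucleotide phosphodiesterase gene, averaged 949 ± 167 CPM, against 51.3 ± 13.4, 2.01 ± 1.66 and 11.9 ± 4.46 CPM in other GABAergic, glycinergic and ganglion nuclei. Col25a1, a transmembrane collagen gene, averaged 3109 ± 586 CPM, against 34.9 ± 4.99, 178 ± 11.8 and 70.2 ± 29.4 CPM. Gm38505 lies inside Sox2ot, which runs on the opposite strand and is not among the genes of the matrices analysed. Hmga2, Pdgfc and Chat hold annotated genes on the opposite strand, as do Cntn5, Slit2 and Chrm2 below, and reads of such partners cannot be told apart where counting ignores strand.

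The starburst nuclei were not uniform. Among the 40 genes that varied most between nuclei beyond counting error (of 1729 with at least 150 UMIs), Cntn5, an adhesion gene of the contactin family, and Tenm3, a teneurin gene, were the pair with the most negative correlation of 780 pairs. Pearson's r of their log levels, centred within libraries, was -0.894 across 216 nuclei, a description over nuclei that share 4 libraries and vary in depth. By which of the 2 genes had more UMIs, 109 nuclei fell on the Cntn5 side and 106 on the Tenm3 side, while 1 nucleus held no UMI of either. In 196 nuclei (90.7%) at least 90% of the UMIs of the pair came from 1 of the genes. The 5-month libraries held 33 and 28 nuclei on the Cntn5 side and 27 and 27 on the Tenm3 side, and the 2.5-month libraries 15 and 33 on the Cntn5 side and 17 and 35 on the Tenm3 side. Both sides were therefore near equal in number in every library. The pair was chosen after the values were seen, so what follows is a description without a test.

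**Figure D3:**
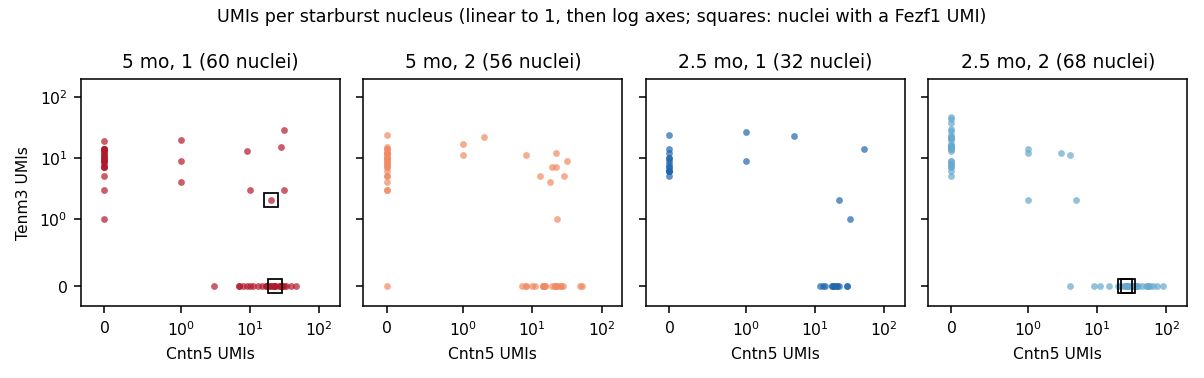
UMIs of Cntn5 (x axes) and Tenm3 (y axes) in each starburst nucleus, with 1 panel per library and axes linear to 1 and logarithmic above; squares mark nuclei with a Fezf1 UMI. The nuclei lie along both axes, 109 nearer the Cntn5 axis and 106 nearer the Tenm3 axis, and the 4 nuclei with Fezf1 are on the Cntn5 side.

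Of 3962 genes with at least 50 CPM on either side, 40 (1.01%) were at least 2-fold higher on the Cntn5 side in every library and 30 (0.757%) on the Tenm3 side. Cntn5 and Tenm3, whose own UMIs set the sides, are counted among the 40 and the 30. Slit2, a secreted guidance gene, stood at 1132 and 894 CPM at 5 months and 1018 and 1210 CPM at 2.5 months on the Cntn5 side, against 20.6 and 19.1 CPM and 30.5 and 20.6 CPM on the Tenm3 side. It was detected in 103 of 109 nuclei on the Cntn5 side and 10 of 106 on the Tenm3 side. Nrg1, a growth factor gene, averaged 3178 ± 662 CPM on the Cntn5 side and 104 ± 77.5 CPM on the Tenm3 side. Cntnap5b, an adhesion gene, averaged 674 ± 153 CPM and 72.0 ± 71.4 CPM on these sides, Camk4, a kinase gene, 911 ± 224 and 151 ± 74.6 CPM, and Plxdc2 345 ± 43.5 and 23.5 ± 8.70 CPM. Kcnb2, high in starburst nuclei as a whole, averaged 5210 ± 1176 CPM on the Cntn5 side and 2030 ± 412 CPM on the Tenm3 side. Megf10 had UMIs in 42 nuclei on the Cntn5 side and 10 on the Tenm3 side. Npy, higher in starburst nuclei as a whole, had 114 UMIs in 62 nuclei on the Cntn5 side and 21 in 16 nuclei on the Tenm3 side. All 4 Fezf1 UMIs were on the Cntn5 side, in 4 nuclei, too few to assign the sides to the ON and OFF populations.

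Chrm2 lay almost wholly on the Tenm3 side. It stood at 25.2 and 9.72 CPM at 5 months and 0 and 15.4 CPM at 2.5 months on the Cntn5 side, against 585 and 548 CPM and 579 and 378 CPM on the Tenm3 side. Of its 350 UMIs 338 lay in 85 nuclei of the Tenm3 side and 12 in 5 nuclei of the Cntn5 side, so the Chrm2 level of starburst nuclei as a whole was carried by 1 side. Gabra4 averaged 91.6 ± 19.2 CPM on the Cntn5 side and 552 ± 55.8 CPM on the Tenm3 side, and Gabrb1 307 ± 64.7 and 1610 ± 215 CPM. Sgcz, a sarcoglycan gene, averaged 717 ± 184 and 6822 ± 483 CPM, Egfem1 260 ± 87.9 and 2845 ± 110 CPM, the transcription factor gene Zfhx3 115 ± 44.8 and 538 ± 43.6 CPM, and the cadherin gene Cdh18 1168 ± 214 and 3643 ± 275 CPM. P2rx2, named above as known from OFF cholinergic cells, was detected in 12 of 109 nuclei of the Cntn5 side and 46 of 106 of the Tenm3 side. Whether the sides are the ON and OFF populations was not tested. Grm8 and Kcnc2 were 2313 ± 472 and 694 ± 95.7 CPM on the Cntn5 side and 5092 ± 787 and 1588 ± 120 CPM on the Tenm3 side.

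The levels of Chat, Slc5a7, Isl1, Megf11 and Gad1 overlapped between the sides. Megf10, also a gene of the rule, was at least 2-fold higher on the Cntn5 side in every library. Chat averaged 425 ± 95.6 CPM on the Cntn5 side and 439 ± 68.3 CPM on the Tenm3 side, Slc5a7 361 ± 15.4 and 480 ± 124 CPM, Isl1 371 ± 52.1 and 425 ± 103 CPM, Megf11 1467 ± 318 and 1461 ± 251 CPM, and Gad1 434 ± 36.0 and 446 ± 56.3 CPM. Median UMIs per nucleus were 6764 on the Cntn5 side and 5895.5 on the Tenm3 side. A few genes of the Cntn5 side rested on single nuclei. Spon1, Unc13c and Adarb2 had 81.3%, 74.3% and 69.7% of their UMIs of that side in 5 nuclei. Without 25 nuclei low in starburst genes, described below with the age contrast, 28 of the 40 Cntn5-side genes and 27 of the 30 Tenm3-side genes were still 2-fold higher in every library. Ntrk3, a neurotrophin receptor gene that averaged 90.3 ± 26.4 CPM on the Cntn5 side and 13.7 ± 18.9 CPM on the Tenm3 side, and Grm8 were among those that were not.

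**Figure D4:**
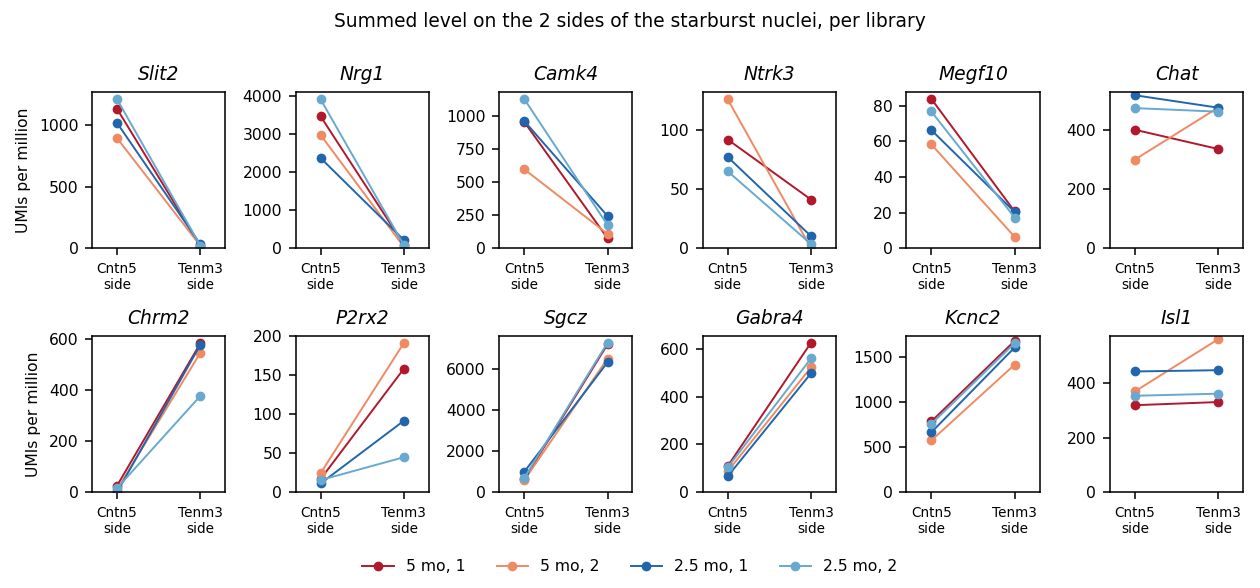
Levels in UMIs per 1000000 (y axes, linear from 0) on the Cntn5 side and the Tenm3 side of the starburst nuclei (x axes); lines join the 2 sides of 1 library. Slit2 lies between 894 and 1210 CPM on the Cntn5 side and between 19.1 and 30.5 CPM on the Tenm3 side, while Chat overlaps.

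Starburst nuclei made up 0.796% and 0.562% of all nuclei at 5 months and 0.433% and 0.917% at 2.5 months. The means were 0.679% ± 0.165 and 0.675% ± 0.342 (SD, n = 2 each) and did not separate (exact permutation test, 2-sided, p = 1.0). Of nuclei in the 3 amacrine classes they made up 7.63% and 5.89% at 5 months and 11.9% and 9.63% at 2.5 months. The means were 6.76% ± 1.23 and 10.7% ± 1.57 with no overlap between libraries of different age. Nuclei were also thinned to 2000 UMIs before the rule was applied. The share was then 7.56% and 7.27% at 5 months and 7.07% and 8.70% at 2.5 months. The ages overlapped, with 22 and 24 starburst nuclei at 5 months and 7 and 18 at 2.5 months. With at least 3 cholinergic UMIs the share was 5.96% and 4.99% at 5 months, against 10.9% and 9.38% at 2.5 months. Without nuclei holding at least 3 UMIs of other cell types' markers it was 14.1% and 8.72%, against 18.4% and 17.5%. The ages did not overlap in either setting. The difference of 5 minus 2.5 months was -3.98 percentage points with all UMIs and -0.47 thinned. With 2 animals an age the exact permutation test cannot go below p = 0.333, which is what it gave with all UMIs. Shares rest on UMI thresholds and move with depth as well as with cell numbers.

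The comparison of ages within starburst nuclei had 2 libraries a side, and age coincides with the version of the counting software, so the 2 cannot be told apart. Of 6045 tested genes, 14 (0.232%) were higher at 5 months and 0 (0%) lower at an adjusted p under 0.05 (edgeR quasi-likelihood test). At an unadjusted p under 0.05 these were 272 and 110, and DESeq2 called 10 higher and 0 lower. The count was unstable: 54 and 59 genes were called higher when either 5-month library was left out, and 82 and 37 when either 2.5-month library was, the first of each pair given first. The 2 libraries of 1 age lay wholly above those of the other in 2221 genes (36.7%). Hs6st3, a heparan sulfate enzyme gene, stood at 247.5 and 249 CPM at 5 months, against 0 and 3.63 CPM at 2.5 months (6.37 ± 0.49, adjusted p = 0.00038). Robo1, the receptor gene for Slit ligands, stood at 141 and 178 CPM at 5 months, against 10.6 and 10.9 CPM at 2.5 months (3.84 ± 0.40, adjusted p = 0.0036). Cartpt, a peptide gene, stood at 315 and 1004 CPM, against 31.8 and 23.6 CPM (4.65 ± 0.57, adjusted p = 0.0066). Lingo2, Plcb1, Epha6, Kcnip4, Ptprk, Tenm4, Tenm1, Meis2 and D130079A08Rik were also called.

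Most of these rises came from a few nuclei. Of 186 Hs6st3 UMIs at 5 months, 97.8% lay in 5 of 116 nuclei, and only 9 nuclei held any, against 2 UMIs in 2 of 100 nuclei at 2.5 months. The same share in 5 nuclei was 96.1% for Cartpt, 89.9% for Robo1, 87.3% for Lingo2 and 84.5% for Kcnip4. The 12 called genes other than Cmss1 and Gm44511 together exceeded 2000 CPM in 10 of 116 nuclei at 5 months, 5 in each library, and in 1 of 100 nuclei at 2.5 months. These 10 nuclei held 91.9% of the UMIs of the 12 genes at 5 months, while the median nucleus held 195 CPM of them at 5 months and 132 CPM at 2.5 months. In 2 of the nuclei 351 and 111 UMIs of Cartpt stood beside 0 of Chat and 0 of Isl1. Their summed level of the genes higher in starburst than in all 3 classes was 33.6% and 35.9% of their library's median.

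Nuclei under 80% of that median numbered 13 and 7 at 5 months and 2 and 3 at 2.5 months. Without these 25 nuclei, a step chosen after seeing the data, 3 genes were called higher at 5 months: Cmss1, Gm44511 and Gm26870. By a test of the class by age interaction, 11 of the 14 genes had an age effect in other GABAergic nuclei that differed from that in starburst nuclei. The 14 had been called on the same starburst sums that enter this test, which favours such a difference in advance. Over the 10286 genes tested, 49 (0.476%) were called higher and 1 (0.00972%) lower in this term. That count was 134 higher when the first 2.5-month library was left out and 31 when the second was. Robo1 stood at 2502 and 2715 CPM at 5 months, against 3257 and 3534 CPM at 2.5 months, in other GABAergic nuclei.

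Cmss1 and Gm44511 behaved otherwise. Cmss1 stood at 1389 and 1954 CPM at 5 months, against 185 and 437 CPM at 2.5 months (2.36 ± 0.34, adjusted p = 0.017), with 14.8% of its 5-month UMIs in 5 nuclei. It was detected in 115 of 116 nuclei at 5 months and 86 of 100 at 2.5 months. Gm44511 stood at 993 and 958 CPM at 5 months, against 302 and 285 CPM at 2.5 months (1.75 ± 0.20, adjusted p = 0.005). Both were likewise higher at 5 months in the other classes, with Cmss1 at 2035 and 3006 CPM at 5 months, against 533 and 731 CPM at 2.5 months, in other GABAergic nuclei, and Gm44511 at 852 and 790 CPM, against 284 and 257 CPM. Cmss1 overlaps Filip1l on the opposite strand, and the sources used here do not say whether counting used strand. Isl1, Prima1, Frmd7 and Calb2, which set starburst nuclei apart from other GABAergic nuclei, were not called by age.

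**Figure D5:**
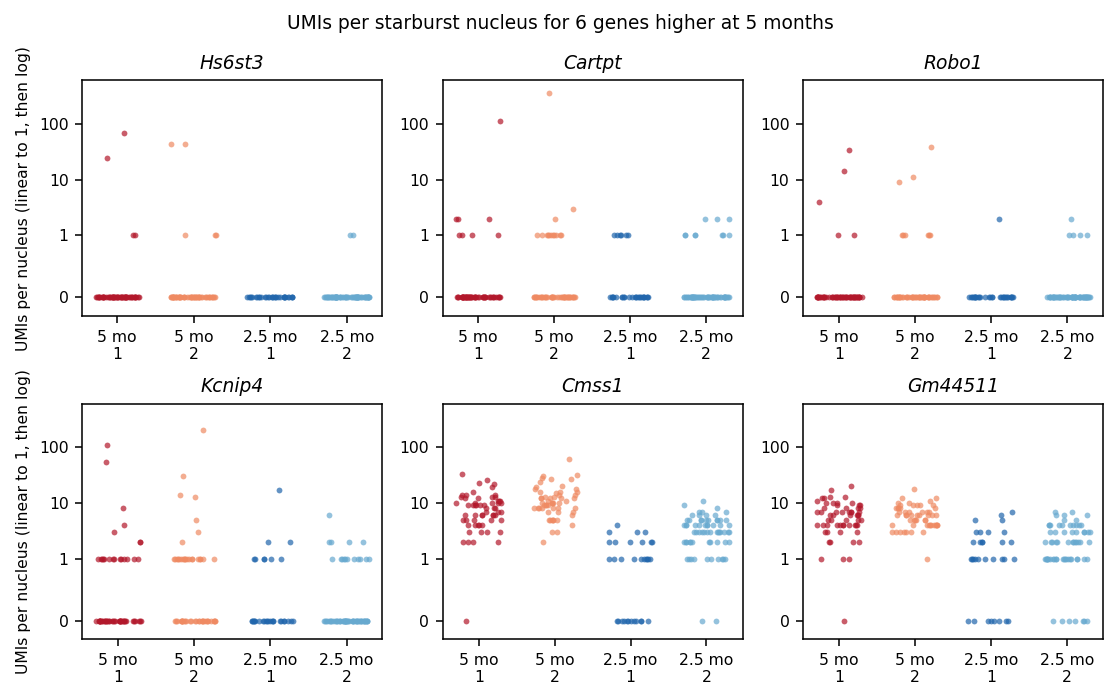
UMIs per starburst nucleus (y axes, linear to 1 and logarithmic above) for 6 of the genes higher at 5 months, by library (x axes: the 5-month libraries, then the 2.5-month libraries); each point is 1 nucleus. The Hs6st3 and Cartpt UMIs sit in a few nuclei of the 5-month libraries, whereas Cmss1 is found in 115 of 116 nuclei at 5 months and 86 of 100 at 2.5 months.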

How the data were processed

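Single-nucleus RNA of 4 mouse retinas was measured with the 10x method. The deposited matrices hold raw counts of UMIs for 31053 genes in each barcode. Per the file headers they were written by Cell Ranger 4.0.0 at 5 months and 7.1.0 at 2.5 months, and per the submitters' processing notes the build was mm10; whether intron reads were counted is not given in the sources used here. Gene positions came from GENCODE on GRCm38 and promoters from RefSeq.

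Of 32326 barcodes, 27 with over 5% mitochondrial UMIs were removed. No doublet caller was run; an alternative left out nuclei with at least 3 UMIs of markers of other cell types. UMIs were summed per class and library, scaled to CPM over 1000000 UMIs for display, and tested with edgeR 4.0.16 (TMM, filterByExpr, quasi-likelihood, library as a block for classes and age alone for ages) in R 4.3.3, with adjusted p under 0.05 called. Genes used to choose any class were not tested. DESeq2 1.42.0, RLE scaling, no filter, thinning to 2000 UMIs, a cholinergic sum of at least 3, a stricter GABAergic class, a donor block and leaving out each library were alternatives. The edgeR steps were tested on simulated data with known changes. Shares were compared by exact permutation. The planned contrast of nuclei with and without Fezf1 was not run, since 4 nuclei held a Fezf1 UMI.

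Genes named in the text were list members, up to 10 higher and 10 lower called genes per contrast by fold change with the same sign in every library and at least 50 CPM, and the first 15 by their smallest rise over the 3 classes; the last, and the genes of the Cntn5 and Tenm3 sides, were chosen after their values were seen. The members and lists were chosen with earlier results of these data known. The labels number the donors, and each library was taken as 1 animal. A few genes of the lists are not reported here by name.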

Additional observations from a re-analysis of the deposited data

Results flagged for a closer look

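The age effect in starburst nuclei differed from that in other GABAergic amacrine nuclei for 11 of the 14 genes called by age, by the class by age term (edgeR, adjusted p under 0.05, 2 libraries an age). These 14 genes were called on the same starburst sums that enter this term, which favours such a difference in advance. The difference, on the log2 scale and as 5 over 2.5 months in starburst minus the same in other GABAergic nuclei, was 6.8 for Hs6st3, 4.94 for Plcb1, 4.28 for Robo1, 4.25 for Ptprk and 3.86 for Lingo2. It was 3.74 for Epha6, 3.65 for Kcnip4, 3.26 for Tenm1, 3.25 for Cartpt, 3.11 for Tenm4 and 2.51 for Meis2. All these genes were lower in starburst than in other GABAergic nuclei over the 4 libraries, with the difference called for each but Cartpt. Between 65.4% (Tenm4) and 97.8% (Hs6st3) of the 5-month starburst UMIs of each of them lay in 5 of 116 nuclei. Without the 25 nuclei low in starburst genes, left out after seeing the data, 16 genes were called in this term by edgeR and 6 of them were among the 50 called with all nuclei, Kcnip4 and Lingo2 included. When each nucleus counted at most once per gene, a step chosen after seeing the data, 0 genes were called in this term by edgeR. The age of the animals and the version of the counting software cannot be told apart here.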

How the results depend on the processing

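Counts of called genes in the class contrasts stayed within 1.5 times the reported ones under RLE scaling, no filter on low counts, DESeq2, the stricter rule (at least 3 cholinergic UMIs), the stricter GABAergic class, leaving out a library, and 2 alternatives chosen after seeing the data (without the 10% of nuclei with most UMIs, and without nuclei low in starburst genes, which is circular for these contrasts). Thinned to 2000 UMIs, which leaves fewer counts, 748 genes were higher and 919 lower against other GABAergic, 710 and 803 against glycinergic, 854 and 1100 against ganglion nuclei, and 438 and 367 in all 3. Without possible doublets these were 516 and 617, 593 and 560, 626 and 812, and 297 and 233; the marker rule took out 160 of 216 starburst nuclei and 1654 of 1849 other GABAergic nuclei, so it is a poor doublet filter. Leaving out a library gave 1009 to 1262 higher and 1309 to 1645 lower, 992 to 1191 and 1025 to 1340, 1381 to 1598 and 1660 to 2173, and 587 to 707 and 393 to 552 in the same order.

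The difference in the share of all nuclei, 5 minus 2.5 months, changed sign to -0.100 percentage points with the stricter rule and ranged from -0.237 to 0.246 leaving out a library. Genes higher at 5 months numbered 22 with RLE scaling, 0 without a filter, 4 thinned, 6 with the stricter rule, 0 without possible doublets, 5 without the 10% of nuclei with most UMIs, 3 without nuclei low in starburst genes and 0 with each nucleus counted at most once per gene, which called 1 gene lower; leaving out a library gave 37 to 82 higher and 2 to 14 lower, with the lone library of an age assumed to vary like the pair. In the class by age term the higher and lower counts were 86 and 6 without a filter, 30 and 0 by DESeq2, 8 and 0 thinned, 21 and 0 with the stricter rule, 0 and 0 without possible doublets, 15 and 0 without the 10% of nuclei with most UMIs, 10 and 6 without nuclei low in starburst genes and 0 and 0 with each nucleus counted once; leaving out a library gave 31 to 134 and 0 to 17. The causes were not tested.

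Single genes that changed sign did so in that term without possible doublets (Robo1 -0.64, Gm44511 -0.088, Cartpt -3.98, Epha6 -1.18, Meis2 -5.28), thinned (Gm44511 -0.19), counted once (Gm44511 -0.061), with the stricter rule (Cartpt -1.11) and without nuclei low in starburst genes (Cartpt -0.92); Kcnc2 against ganglion nuclei was 0.56 without possible doublets. With the donor number as a replicate block 15 genes were higher and 0 lower at 5 months, 13 of them among the 14; deviations of same-numbered libraries correlated at 0.053 over 6054 genes, and the labels tie no litter, batch or day to a number, so the block was not taken as a pairing. Same-numbered libraries did share a sex-linked pattern: 4 Y-linked genes, over the nuclei of all 4 classes, summed to 462 and 3.17 CPM at 5 months and 555 and 1.44 CPM at 2.5 months for donors 1 and 2. No value could be had for the alternatives of the Fezf1 contrast.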

Other observations

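Immediate early genes, which neurons switch on with activity, were in part lower in starburst nuclei. Of 12 tested, 8 fell against other GABAergic nuclei, with a median of -1.84, and 4 and 7 fell against glycinergic and ganglion nuclei. Egr1 had 2 UMIs of 1489503 in starburst nuclei, against 306 of 12073623 in other GABAergic and 173 of 11594006 in ganglion nuclei. Fos had 3 UMIs, against 213 and 165 of the same totals. Of 8 tested interferon and MHC class I genes, 1 rose and 2 fell against other GABAergic nuclei.

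P2ry12, a microglial marker, averaged 216 ± 70.2 CPM in starburst nuclei, against 21.8 ± 13.4 CPM in other GABAergic nuclei (SD, n = 4 libraries), a log2 fold change of 3.36 ± 0.17 (edgeR, adjusted p = 4.3e-13). It lies inside Med12l on the opposite strand. Cannabinoid receptor gene Cnr1 averaged 73.9 ± 21.9 CPM, against 40.1 ± 12.2 CPM in other GABAergic nuclei, and rose in all 3 contrasts, by 1.15 ± 0.25, 2.92 ± 0.35 and 2.23 ± 0.27 on the log2 scale. The ephrin ligand gene Efna5 averaged 1124 ± 122 CPM, against 183 ± 39.6 CPM in other GABAergic nuclei, and also rose in all 3. Rps21, a ribosomal protein gene, stood at 7.82 and 13.7 CPM in starburst nuclei at 5 months, against 148 and 56.2 CPM at 2.5 months, and was not called (edgeR, adjusted p = 0.086). It was the gene called lower when each nucleus counted at most once per gene (-2.48 on the log2 scale, adjusted p = 0.025), and its adjusted p ranged from 4.1e-07 to 0.81 over the alternatives.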
